A study of Homo sapiens with 12 samples.

Results

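The comparison of WX-02-23 with DMSO rested on 6 of the 12 libraries of the series, 3 for each group, and followed newly made and total RNA of the same cells side by side. The cells came from 22Rv1, an established line of human prostate carcinoma, whose genome was edited to express C1111S-SF3B1, a form of the splicing factor SF3B1 in which a cysteine is replaced by a serine. Every group shared this genotype and a 1 h exposure to 100 µM 4-thiouridine. The DMSO group received solvent at 0.1% v/v, and the WX-02-23 group 20 µM of the code-named compound, which the labels class as a stereoprobe, for 3 h before the 4-thiouridine. The other groups, which entered the fits, were WX-02-43 (20 µM, 3 h) and PladB (10 nM, 3 h). Neither the clonal origin of the edited line nor the independence of the replicate cultures is given in the labels. The p-values below therefore measure the spread between these libraries, which may be technical. Coding genes were taken from intervals with RefSeq coding transcripts, and a gene's overlapping intervals were counted once, which left 18650 genes. Of these, 10722 had enough T>C reads to be tested in new RNA and 13178 enough reads to be tested in total RNA.

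In SLAM-seq, cells incorporate 4-thiouridine into the RNA they make, and alkylation then turns these positions into T-to-C changes in the reads. Reads that carry such a change (T>C reads) stand for RNA made during the labelling, called new RNA here, and all reads of a gene stand for total RNA. A short-lived transcript is replaced within hours, so that much of its total RNA is new, whereas a long-lived transcript keeps RNA made before the treatment. Electrophilic compounds are known to engage several stress programmes, among them the NRF2 programme of antioxidant genes, the heat shock response and the ATF4-driven integrated stress response.

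The libraries held between 12331520 and 21414824 reads in coding genes, of which 1157967 to 2094108 were T>C reads. The smallest library in both respects was WX-02-23 replicate 2. Levels are given as CPM after TMM scaling. For new RNA they relate a gene's T>C reads to all T>C reads in the coding genes tested in new RNA. For total RNA they relate its reads to all reads in the coding genes tested in total RNA. Values of the 2 scales are not compared with each other. The markers of prostate luminal epithelium, HOXB13, KRT8 and EPCAM among them, were detected, although KLK3, TMPRSS2 and KLK2 were low in total RNA. Markers of other cell types were summed per list in CPM of all reads without TMM scaling. The 6 basal markers summed to 0.596 to 4.68 CPM in DMSO and 0 to 5.45 CPM with WX-02-23, with KRT5 and TP63 at 0 in all 6 libraries. The 6 leukocyte markers summed to 2.75 to 7.15 and 1.54 to 7.86 CPM, with CD3E and LYZ at 0. The 8 stromal markers summed to 38.6 to 55.9 and 45.2 to 60.6 CPM, mostly VIM (20.7 to 35.8 CPM in DMSO), with COL1A2 and PDGFRB at 0. The 8 neuroendocrine markers summed to 236 to 275 and 231 to 259 CPM, mostly ENO2 (197 to 228 CPM in DMSO), with INSM1 at 0. In a bulk sample, fewer cells of a kind and less RNA per cell cannot be told apart.

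The first question was which genes differed between WX-02-23 and DMSO in new RNA, in total RNA or in both. A gene was called where edgeR's quasi-likelihood test gave an adjusted p under 0.05. In new RNA, 24 of 10722 genes were called (0.224%), 18 higher (0.168%) and 6 lower (0.056%) with WX-02-23. In total RNA, 92 of 13178 genes were called (0.698%), 56 higher (0.425%) and 36 lower (0.273%). At an unadjusted p under 0.05 these counts were 485 and 1146. The groups of 3 libraries did not overlap in new RNA in 12% of the genes tested, and in total RNA in 13.8%. Both readouts called 22 genes, always in the same direction, 16 of them higher and 6 lower. T>C reads are part of all reads, so some of this agreement in calls and direction is built in. Leaving out 1 library moved the counts, most of all without WX-02-23 replicate 2, with 12 calls in new RNA, 41 in total RNA, 11 in both and 30 in total RNA only. Without WX-02-23 replicate 1 there were 15, 61 and 13 in new RNA, total RNA and both, and without WX-02-23 replicate 3 there were 46 in total RNA, 14 in both and 32 in total RNA only. Both readouts called 14 genes without DMSO replicate 2, and new RNA alone called 5 without DMSO replicate 1 or 3 and 1 without WX-02-23 replicate 2. DESeq2 called 69 genes in new RNA and 146 in total RNA, and plain sums over overlapping intervals gave 13 and 53. The 22 genes called in both were 91.7% of the genes called in new RNA and 23.9% of those called in total RNA. New RNA alone called 2 genes, FTH1 and CD81, and total RNA alone called 70, of which 40 were higher and 30 lower. The median log2 change over all genes tested was 0.00 in both readouts. TMM scaling, done for each readout separately, largely sets this value. A change shared by most genes would therefore not be seen.

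**Figure D1:**
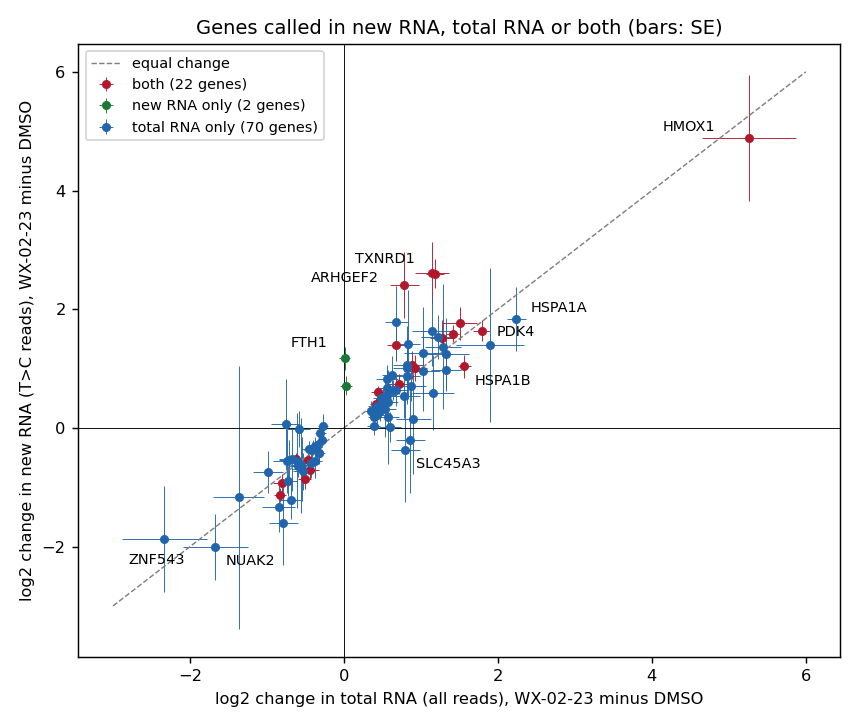
Log2 change in total RNA (x axis) against log2 change in new RNA (y axis), WX-02-23 minus DMSO, for the genes called in both readouts (red), in new RNA only (green) or in total RNA only (blue); bars are standard errors and the dashed line marks equal change. OSGIN1, 1 of the 22 genes called in both, is not drawn because its T>C reads were 0 throughout the DMSO group, and the labels ARHGEF2, NUAK2 and ZNF543 were chosen after their values were seen. FTH1 lies at 0.01 on the x axis and 1.17 on the y axis, and TXNRD1 lies above the dashed line at 1.18 and 2.60.

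The NRF2 and electrophile response list held the 2 genes with the largest fitted changes among those called in new RNA, OSGIN1 and HMOX1. NRF2 is a transcription factor that is released from its inhibitor KEAP1 when cysteines of KEAP1 are modified, and its targets make thioredoxin, glutathione, NADPH and heme-handling enzymes. Of 33 tested members of this list, 5 were called higher in new RNA (TXNRD1, SRXN1, HMOX1, OSGIN1 and FTH1) and none lower, and 7 of 37 were called higher in total RNA (TXNRD1, SRXN1, HMOX1, OSGIN1, CBR1, TRIM16L and SLC7A11), again with none lower. Over all genes tested, 0.168% were called higher in new RNA and 0.425% in total RNA. The list's median log2 change was 0.73 in new RNA and 0.35 in total RNA, beside 0.00 for all genes in each. The scaling largely sets the value for all genes.

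TXNRD1 encodes thioredoxin reductase, which keeps thioredoxin reduced, and its interval lies at chr12:104742200-104744085 in hg19. Its new RNA stood at 207, 229 and 292 CPM in the DMSO libraries and at 1355, 1538 and 1521 CPM in the WX-02-23 libraries. Its total RNA went from 156, 131 and 161 CPM to 320.1, 336 and 361 CPM. All 3 treated libraries were above all 3 DMSO libraries on both scales. New RNA rose by 2.60 on the log2 scale (SE 0.24, edgeR adjusted p = 1.22e-09) and total RNA by 1.18 (SE 0.12, edgeR adjusted p = 2.31e-09), which are 6.06-fold and 2.27-fold.

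OSGIN1 encodes an oxidative stress induced growth inhibitor, at chr16:83999613-83999937 in hg19. It had 0 T>C reads in each DMSO library and 215, 154 and 143 T>C reads in the WX-02-23 libraries. Against a floor of 3 counts per DMSO library, new RNA was at least 55.4-fold higher with WX-02-23, a bound that covers counting error only. Total RNA rose from 0.506, 2.5 and 5.96 CPM to 22.3, 26.2 and 17.6 CPM, a log2 change of 2.88 (SE 0.55, edgeR adjusted p = 0.00276). HMOX1, the heme oxygenase that breaks down heme, had 31, 12 and 1 reads in the DMSO libraries. Its total RNA rose from 1.74, 0.769 and 0.0596 CPM to 30, 35.7 and 34.9 CPM, a log2 change of 5.27 (SE 0.61, edgeR adjusted p = 2.26e-07). In new RNA HMOX1 had 17.3, 0 and 0.623 CPM in DMSO and 181, 158 and 209 CPM with WX-02-23. That call (edgeR adjusted p = 0.0266) was kept only without DMSO replicate 1, at 0.000283, and ended without any other library, with adjusted p from 0.0892 to 0.172. In DMSO replicate 1, 30 of the 31 HMOX1 reads were T>C reads.

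SRXN1, a sulfiredoxin that restores oxidised peroxiredoxins, went in new RNA from 206, 155 and 254 CPM to 626, 486 and 517 CPM and in total RNA from 115, 119 and 130.4 CPM to 196, 209.7 and 179 CPM. Its changes were 1.41 (SE 0.28, edgeR adjusted p = 0.00783) and 0.68 (SE 0.13, edgeR adjusted p = 0.00198). The new RNA call of SRXN1 ended without DMSO replicate 2 (adjusted p = 0.123) and without WX-02-23 replicate 1 (0.114). CBR1, a carbonyl reductase, SLC7A11, the cystine transporter, and TRIM16L passed in total RNA only, with log2 changes of 0.68, 0.54 and 1.89 and edgeR adjusted p of 0.0139, 0.0378 and 0.0255. The interval of CBR1 overlaps LOC100133286 on the opposite strand. Its call held in the fits that left out DMSO replicate 3 or WX-02-23 replicate 1, and ended in the others (0.0608 to 0.105). SLC7A11 was kept only without DMSO replicate 2 and otherwise ended (0.0648 to 0.205), and TRIM16L ended without any library (0.0586 to 0.234). PRDX1, the peroxiredoxin with the most reads, and FTL, the ferritin light chain, did not pass: their new RNA values were 0.91 (95% interval 0.30 to 1.52) and 0.54 (-0.28 to 1.36), and their total RNA values 0.18 and -0.09.

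Promoter sequence was read for the stress genes because members of these lists moved together. The windows are from RefSeq in GRCh38.p14, run from 250 bases before to 50 after each annotated start, and were matched on both strands; the motifs were chosen after the gene values were seen. The core of the antioxidant response element, TGACNNNGC, was found for TXNRD1 and CBR1 among the 4 called NRF2 list genes that have a window, and in 19.2% of the 10321 tested genes with a window. Among genes with a window that were called higher, it was found in 2 of 13 called in both readouts (15.4%). The same held for 8 of 33 called in total RNA only (24.2%). A gene counts as matched if any of its windows matches, and 13.3% of all windows did. The core of the composite element bound by CHOP and ATF4, TGATGNAA, was found for CHAC1 and ATF3 among the 10 called integrated stress response genes, and in 2.68% of tested genes. The heat shock element of 3 alternating units, GAA, TTC and GAA or TTC, GAA and TTC with NN between units, was found for HSPA8 alone among 6 called heat shock genes, and in 0.484% of tested genes. None of these patterns contains another. A match is a description of the letters and not a bound site. A further pattern that was read, the core of the xenobiotic response element, TNGCGTG, matched 9.24% of tested genes. Among genes called higher it matched 1 of 13 called in both readouts and 3 of 33 called in total RNA only. For each gene the first listed of its matches is shown with the match in capitals, 5′ to 3′ in the direction of the gene, for 1 gene of each programme and for CBR1.
TXNRD1, chr12:104215670-104215699, plus strand: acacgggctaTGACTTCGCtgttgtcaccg
CBR1, chr21:36069855-36069884, plus strand: tgcgggttctGCAAAGTCAggctagctggc
CHAC1, chr15:40953251-40953280, plus strand: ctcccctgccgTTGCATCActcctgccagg
HSPA8, chr11:123062170-123062199, minus strand: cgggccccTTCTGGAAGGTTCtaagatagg

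**Figure D2:**
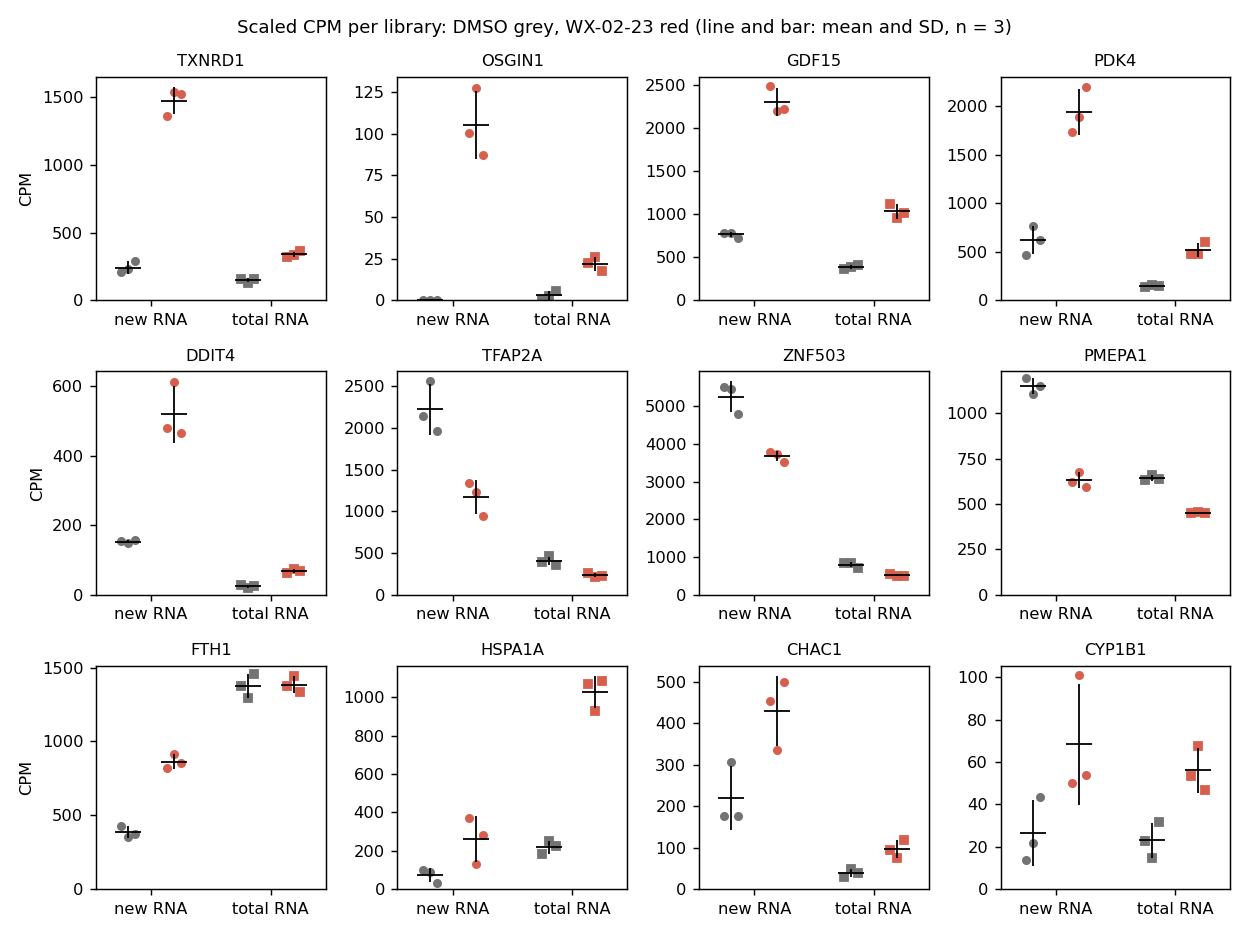
CPM of 12 genes (y axis, each panel from 0) in new RNA (circles) and total RNA (squares) for the 3 DMSO libraries (grey) and the 3 WX-02-23 libraries (red), with mean and SD. TXNRD1, OSGIN1, GDF15, PDK4 and DDIT4 were higher with WX-02-23 on both scales, TFAP2A, ZNF503 and PMEPA1 were lower, and FTH1 differed in new RNA only. HSPA1A, CHAC1 and CYP1B1 passed the test in total RNA only.

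The integrated stress response list had more calls in total RNA than in new RNA. In this response the translation factor eIF2 is phosphorylated and ATF4 activates genes of amino acid supply and stress control. Of 30 tested members, 3 were called higher in new RNA (GDF15, DDIT4 and SESN2) and 10 in total RNA (those 3 with ATF3, ATF4, CHAC1, DDIT3, SLC38A2, STC2 and TRIB3), and none was called lower. The shares called higher over all genes tested were 0.168% in new RNA and 0.425% in total RNA. The list's median log2 change was 0.36 in new RNA and 0.31 in total RNA, beside 0.00 for all genes in each.

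GDF15 encodes a secreted stress cytokine, at chr19:18499746-18499987 in hg19. In new RNA it stood at 782, 784 and 730.2 CPM with DMSO and 2485, 2201 and 2219 CPM with WX-02-23, and in total RNA at 365, 392 and 407 CPM and 1121, 959 and 1018 CPM. The groups did not overlap, and the log2 changes of 1.59 (SE 0.14, edgeR adjusted p = 6.31e-10) and 1.41 (SE 0.09, edgeR adjusted p = 2.13e-15) were close in size. DDIT4 encodes an inhibitor of mTORC1 signalling. Its new RNA went from 153, 148 and 156 CPM to 479, 613 and 465 CPM, a log2 change of 1.76 (SE 0.27, edgeR adjusted p = 0.000241). Its total RNA went from 27.9, 19 and 24.6 CPM to 61.1, 73.1 and 68.3 CPM, a log2 change of 1.50 (SE 0.22, edgeR adjusted p = 4.81e-05). CHAC1 encodes a glutathione-degrading enzyme, and its total RNA rose from 28.1, 49.1 and 38 CPM to 95.1, 75.4 and 119 CPM, by 1.33 (SE 0.20, edgeR adjusted p = 4.81e-05). Its new RNA was 176, 308 and 175 CPM in DMSO and 455, 335 and 500.2 CPM with WX-02-23. The groups did not overlap there either, but the log2 value of 0.97 did not pass (edgeR adjusted p = 0.482).

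SLC38A2, an amino acid transporter, had nearly the same value on both scales, 0.50 in new RNA (edgeR adjusted p = 0.326) and 0.51 in total RNA (SE 0.10, edgeR adjusted p = 0.00296). Total RNA of ATF4 itself rose by 0.47 (edgeR adjusted p = 0.00531), a call that ended without WX-02-23 replicate 2 (0.0675). DDIT3, which encodes CHOP, rose by 0.60 in total RNA (edgeR adjusted p = 0.026), while its new RNA stood at 0.01 (95% interval -0.49 to 0.52). The DDIT3 interval overlaps MARS on the opposite strand, and its call ended without DMSO replicate 1 (0.207), WX-02-23 replicate 1 (0.0604) or WX-02-23 replicate 3 (0.233). ATF3 rose by 0.88 and was lost without DMSO replicate 1 (0.111) or WX-02-23 replicate 2 (0.115). STC2, by 1.16, was lost without DMSO replicate 1 (0.18), WX-02-23 replicate 2 (0.181) or WX-02-23 replicate 3 (0.0879). TRIB3, by 0.56, was kept only without WX-02-23 replicate 1 and was otherwise lost (0.0901 to 0.357). SESN2, a sestrin that restrains mTORC1, rose by 1.06 in new RNA and 0.88 in total RNA. Its total RNA call held in all 6 fits that left out 1 library, and its new RNA call (edgeR adjusted p = 0.0322) only in the fit without DMSO replicate 3, with 0.075 to 0.429 in the others.

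The called heat shock genes were also higher with WX-02-23. These chaperones refold damaged proteins and are induced by HSF1. Of 29 tested members, 1 was called higher in new RNA (HSPA1B), and of 30 in total RNA 6 were called higher (HSPA1A, HSPA1B, HSPA8, HSPH1, DNAJB1 and BAG3), with none lower. Among all genes tested, 0.168% were called higher in new RNA and 0.425% in total RNA. The medians were 0.36 in new RNA and 0.24 in total RNA, beside 0.00 for all genes in each. HSPA1A and HSPA1B are neighbouring genes with nearly identical HSP70 products, so reads may be split between them, although under 1% of the reads of either were multimapping (0.217% and 0.216%). HSPA1A, at chr6:31785460-31785719 in hg19, had total RNA of 181, 250.1 and 222 CPM in DMSO and 1068, 931 and 1084 CPM with WX-02-23, a rise of 2.24 (SE 0.12, edgeR adjusted p = 6.03e-17). Its new RNA was uneven, at 97.3, 89.6 and 31.2 CPM against 368, 129 and 279 CPM, and the log2 value of 1.83 (SE 0.54) did not pass (edgeR adjusted p = 0.326). HSPA1B rose in new RNA from 370.4, 372 and 400.0 CPM to 699.8, 909.9 and 733 CPM and in total RNA from 447, 424 and 466 CPM to 1242, 1325 and 1376 CPM. Its changes were 1.03 (SE 0.20, edgeR adjusted p = 0.00653) and 1.56 (SE 0.08, edgeR adjusted p = 4.43e-17), and the new RNA call ended without WX-02-23 replicate 2 (0.119). HSPA8, the constitutive HSP70, rose by 0.36 in total RNA but is uncertain, since 84% of its reads were multimapping. The total RNA calls of the other members each ended without at least 3 of the libraries: HSPH1 (0.63) without DMSO replicate 2 or WX-02-23 replicates 2 and 3 (0.06 to 0.0891), BAG3 (0.81) without DMSO replicate 3 or WX-02-23 replicates 1 and 3 (0.0709 to 0.097), DNAJB1 (0.57) without any library but DMSO replicate 2 (0.0582 to 0.17), and HSPA8 without DMSO replicates 1 and 2 or WX-02-23 replicates 2 and 3 (0.0716 to 0.223). HSP90AB1 and HSPB1, chaperones with many reads, had total RNA values of 0.01 and 0.20 that did not pass.

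The genes that fell in both readouts included the epithelial transcription factors TFAP2A, TBX3 and ZNF503, and ELF3 of the same list rose. TFAP2A, an AP-2 transcription factor, went in new RNA from 2145, 2560.4 and 1963 CPM to 1343, 1227 and 945 CPM and in total RNA from 394, 461 and 359.6 CPM to 261, 215 and 219 CPM. It fell by 0.92 (SE 0.15, edgeR adjusted p = 0.000548) and by 0.81 (SE 0.12, edgeR adjusted p = 4.81e-05). ZNF503, a zinc finger repressor, went in new RNA from 5522, 5471 and 4789.5 CPM to 3777, 3732 and 3527 CPM and fell by 0.52 (SE 0.09, edgeR adjusted p = 0.00199), beside a fall by 0.63 (SE 0.09, edgeR adjusted p = 1.42e-05) in total RNA. Neither gene had overlapping groups in either readout.

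TBX3, a T-box repressor, fell by 0.54 in new RNA (edgeR adjusted p = 0.0185) and by 0.46 in total RNA (edgeR adjusted p = 0.00201). Its total RNA call ended without WX-02-23 replicate 2 (0.058), and its new RNA call without DMSO replicates 1 and 3 or WX-02-23 replicates 2 and 3 (0.0526 to 0.293). ELF3, an epithelial ETS factor, rose by 1.01 in new RNA (edgeR adjusted p = 0.02) and by 0.93 in total RNA (edgeR adjusted p = 0.00014), of which only the new RNA call ended, in the fits without DMSO replicates 2 and 3 or WX-02-23 replicates 1 and 2 (0.115 to 0.157). FOXA1, the pioneer factor named in the series title, was not called. Its new RNA was 2331, 2924 and 2713 CPM in DMSO and 2482, 2015 and 2414 CPM with WX-02-23, and its total RNA 493, 542 and 513 CPM and 533, 436 and 462 CPM. The groups overlapped in both, with log2 values of -0.21 (95% interval -0.43 to 0.02) and -0.11 (-0.30 to 0.07).

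PMEPA1 encodes a membrane protein that restrains TGF-beta signalling. It went in new RNA from 1195, 1109 and 1151 CPM to 622, 678 and 592 CPM and in total RNA from 634, 662 and 636 CPM to 449, 458 and 449.5 CPM. It fell by 0.87 (SE 0.16, edgeR adjusted p = 0.00259) and by 0.51 (SE 0.08, edgeR adjusted p = 0.000269). SLC45A3, a transporter of prostate epithelium, rose by 0.80 in total RNA while its new RNA value was -0.37 (95% interval -2.16 to 1.42). The SLC45A3 call held in the fits that left out DMSO replicate 2 or WX-02-23 replicate 1, and ended in the others (0.0608 to 0.223).

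PDK4 encodes a kinase that shuts off pyruvate dehydrogenase in fasting, and lies at chr7:95212809-95214952 in hg19. Its new RNA was 471, 768 and 626 CPM in DMSO and 1731, 1885 and 2195 CPM with WX-02-23, and its total RNA 138, 160.1 and 153 CPM against 482, 475 and 600.5 CPM. It rose by 1.64 (SE 0.18, edgeR adjusted p = 5.93e-08) in new RNA and by 1.79 (SE 0.11, edgeR adjusted p = 2.13e-15) in total RNA. Together with IRS1, the insulin receptor substrate, it made up the 2 of 25 FOXO, insulin and glucose genes called in each readout. Of all genes tested, 0.224% were called in new RNA and 0.698% in total RNA. IRS1 rose by 1.52 in new RNA and 1.27 in total RNA (edgeR adjusted p = 0.01 and 1.3e-06). The new RNA call of IRS1 ended without DMSO replicates 1 and 3 or WX-02-23 replicates 2 and 3 (0.0576 to 0.105). TXNIP and IRS2, both with more reads in DMSO, had total RNA values of 0.16 and 0.04 that did not pass. The class called in both also held 4 genes that were named after their values were seen, namely C9orf66, ARHGEF2 and AMD1, which rose, and TUBB, which fell. C9orf66 had 2.62 in new RNA and 1.15 in total RNA, ARHGEF2 2.40 and 0.79, AMD1 0.40 and 0.41, and TUBB -0.70 and -0.43. The new RNA call of AMD1 ended without any library (0.0535 to 0.308), as did that of ARHGEF2 (0.0741 to 0.293), whose total RNA call held only without DMSO replicate 2 (0.0847 to 0.238 otherwise). C9orf66 lost its new RNA call without DMSO replicates 1 and 3 or WX-02-23 replicates 1 and 2 (0.0581 to 0.0954). The new RNA call of TUBB held when DMSO replicate 1 or 3 was left out and ended in the other fits (0.11 to 0.951). TUBB lost its total RNA call without DMSO replicate 2 or WX-02-23 replicates 2 and 3 (0.178 to 0.562), and is uncertain with 21.5% multimapping reads.

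The 70 genes called in total RNA only ran from -2.33, for ZNF543, to 2.24, for HSPA1A, on the log2 scale. ZNF543, a zinc finger gene with 4.95, 6.02 and 8.52 CPM in DMSO and 1.17, 0.844 and 1.82 CPM with WX-02-23, was named after its values were seen and lost its call without DMSO replicates 2 and 3 or WX-02-23 replicates 1 and 2 (0.052 to 0.155). Of these genes, 9 kept that call in every fit that left out 1 library. Those that rose were HSPA1A, CHAC1 and SLC38A2, described above, with CYP1B1 and ERRFI1. CYP1B1 encodes a cytochrome P450 that the aryl hydrocarbon receptor induces. Its total RNA rose from 22.7, 14.7 and 31.5 CPM to 53.6, 67.6 and 46.8 CPM, by 1.28 (SE 0.24, edgeR adjusted p = 0.00194), and its new RNA value of 1.37 had an interval of -0.76 to 3.50. ERRFI1, a feedback inhibitor of the EGF receptor, went from 39.4, 24.5 and 25.1 CPM to 72.1, 69.6 and 66.1 CPM, a rise of 1.22 (SE 0.22, edgeR adjusted p = 0.0016), with 17.7% multimapping reads. Its new RNA value was 1.53 (edgeR adjusted p = 0.0722).

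The 4 of these that fell in total RNA were SEMA6A, ZC3HAV1, RBM47 and TUBA1B. SEMA6A encodes a transmembrane semaphorin and went from 453, 671 and 447 CPM to 359, 300.4 and 294 CPM, a fall by 0.72 (SE 0.12, edgeR adjusted p = 0.000204). ZC3HAV1, an antiviral zinc finger protein, went from 193, 175 and 177 CPM to 114, 99.2 and 119 CPM, a fall by 0.71 (SE 0.12, edgeR adjusted p = 0.000947). RBM47, an RNA-binding protein of epithelia, went from 138, 145 and 121 CPM to 81.4, 91.6 and 76.6 CPM, a fall by 0.69 (SE 0.13, edgeR adjusted p = 0.00274). TUBA1B, an alpha-tubulin, went from 3865, 4189.9 and 3989 CPM to 3022, 3271 and 3301 CPM, a fall by 0.33 (SE 0.06, edgeR adjusted p = 0.00202). Their new RNA values were -0.89, -0.55, -1.21 and -0.42, each below 0 as in total RNA and none past the threshold (edgeR adjusted p from 0.215 to 1).

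Further lists are given by their counts, beside 0.224% of all genes called in new RNA and 0.698% in total RNA. The immediate early genes had 1 of 32 called higher in new RNA (KLF6) and 4 of 34 in total RNA (KLF6, JUN, EGR1 and ATF3). KLF6 rose by 0.74 and 0.72. Its new RNA call (edgeR adjusted p = 0.0433) ended without any library (0.0576 to 0.293), and its total RNA call without WX-02-23 replicate 2 (0.0773). JUN (0.48) was lost without DMSO replicate 1 or WX-02-23 replicates 1 and 2 (0.0918 to 0.125), and EGR1 (0.63) without DMSO replicates 2 and 3 or WX-02-23 replicates 1 and 3 (0.0535 to 0.11). The unfolded protein response of the endoplasmic reticulum had 0 of 20 called in new RNA and 2 lower in total RNA, the chaperones HSP90B1 and PDIA6, both by 0.38. HSP90B1 was lost without DMSO replicate 2 or WX-02-23 replicates 1 and 2 (0.133 to 0.382), and PDIA6, which overlaps ATP6V1C2 on the opposite strand, without DMSO replicate 2 or any WX-02-23 library (0.0568 to 0.206). HSPA5, the main chaperone of that compartment, had values of 0.04 and -0.07.

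For the TGF-beta and BMP feedback genes, PMEPA1 was the 1 of 18 called in new RNA, and PMEPA1 and ID2 were the 2 of 21 in total RNA. ID2 fell by 0.35 but is uncertain with 20.9% multimapping reads, and its call was lost without WX-02-23 replicate 2 (0.121) or 3 (0.0641). The 2 p53 target genes called in each readout, of 24 and 26, were GDF15 and SESN2, which also belong to the integrated stress response list, while CDKN1A had 0.46 and 0.30 and did not pass. CASP9 fell by 1.37 in total RNA as the 1 apoptosis regulator called of 27, a call that held when DMSO replicate 3 or WX-02-23 replicate 1 was left out and was otherwise lost (0.0879 to 0.198). No member was called in either readout among 41 cell cycle genes, 30 MYC and ribosome biogenesis genes, 21 SF3b, SF3a and U2 factors or 31 SR and hnRNP splicing regulators. The same held for the cholesterol and fatty acid synthesis genes (26 tested in new RNA and 28 in total RNA) and the metal response genes (10 and 12). Their median changes in new RNA lay between -0.36, for the cell cycle genes, and 0.42, for the metal response genes. In total RNA the medians lay between -0.16, for the SR and hnRNP list, and 0.03, for the cholesterol list. Over all genes tested, 0.224% were called in new RNA and 0.698% in total RNA, so lists of this size would mostly hold no call. At an unadjusted p under 0.05 the cell cycle list had 4 genes in new RNA and 14 in total RNA, the MYC list 0 and 7, the SF3b list 1 and 0, the SR and hnRNP list 2 and 9, the cholesterol list 2 and 3, and the metal response list 1 and 2. Of all genes tested, 4.52% in new RNA and 8.70% in total RNA had an unadjusted p under 0.05. SF3B1 had total RNA of 62, 65.9 and 67.4 CPM in DMSO and 52.7, 58.8 and 56.7 CPM with WX-02-23, without overlap. Its log2 value was -0.22 (95% interval -0.55 to 0.12) in total RNA and -0.27 (-1.37 to 0.83) in new RNA, neither past the threshold. These 3' end reads cover the level of SF3B1 and not the edited codon.

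**Figure D3:**
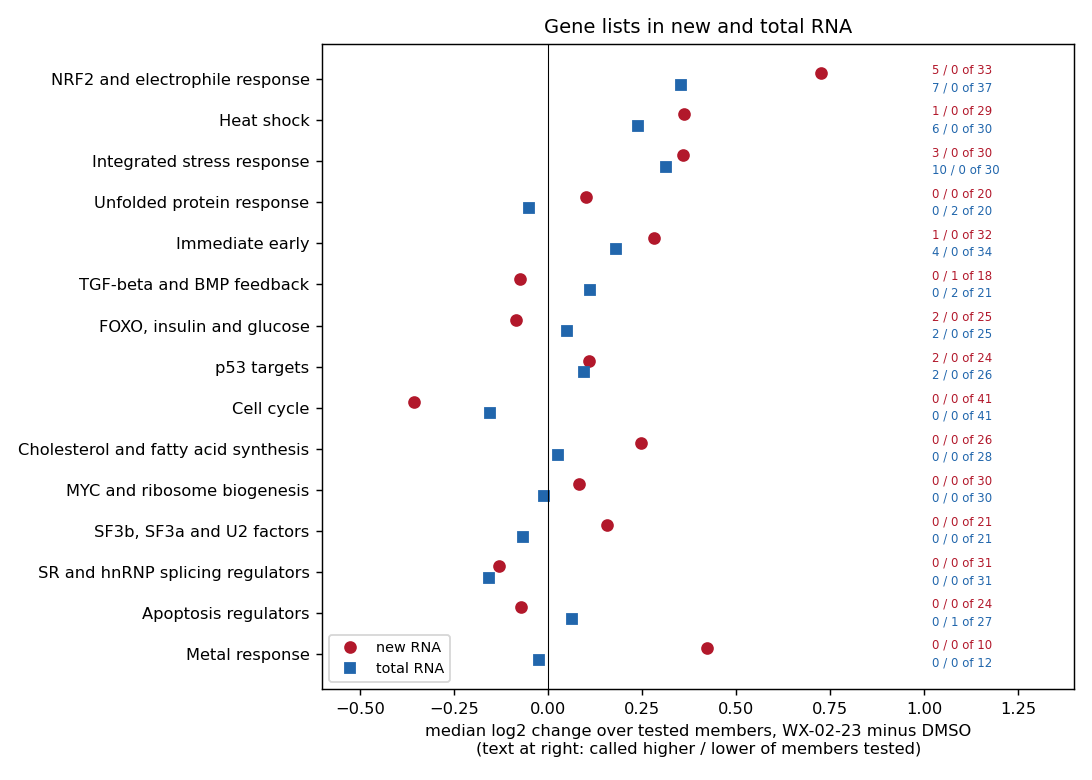
Median log2 change, WX-02-23 minus DMSO (x axis), over the tested members of 15 gene lists (rows) in new RNA (red circles) and total RNA (blue squares); the text at the right gives members called higher and lower of those tested. The NRF2 list lies farthest to the right in new RNA, at 0.73, and the cell cycle list farthest to the left, at -0.36.

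The labelled share of a gene, its T>C reads over all its reads, tests whether new and total RNA changed by different factors. Of 10720 genes tested, 1 was called (0.00933%), FTH1, and 361 had an unadjusted p under 0.05. FTH1 encodes the ferritin heavy chain, which stores iron, at chr11:61731757-61732198 in hg19. Its labelled share was 3.03, 2.46 and 2.45% in DMSO and 5.68, 5.86 and 6.2% with WX-02-23, a rise in the log2 odds of 1.22 (SE 0.15, edgeR adjusted p = 0.0161). New RNA went from 427, 348 and 373 CPM to 819, 915 and 856 CPM, by 1.17 (SE 0.20, edgeR adjusted p = 0.000786). Total RNA was 1378, 1296 and 1457 CPM against 1377, 1445 and 1332 CPM, with overlapping groups and a log2 value of 0.01 (95% interval -0.14 to 0.16). FTH1 is uncertain because 79% of its reads were multimapping, as the genome holds many ferritin pseudogenes, and its interval overlaps BEST1 on the opposite strand. Its new RNA call held in all 6 fits that left out 1 library. Its share call was kept without DMSO replicate 1 (0.0248) and ended without any other library (0.088 to 0.175). It also ended with limma (adjusted p = 0.902) and in edgeR on the 6 libraries alone (0.19).

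CD81, a tetraspanin of the cell surface and the other gene called in new RNA only, went there from 802, 668 and 670.4 CPM to 1112, 1460.1 and 941 CPM, by 0.71 (SE 0.16, edgeR adjusted p = 0.0309). That call held when DMSO replicate 1 or WX-02-23 replicate 3 was left out, and ended in the other fits (0.0701 to 0.633). Its total RNA value was 0.03 (95% interval -0.13 to 0.19), and its share of 8.33% ± 1.17 (SD, n = 3) against 13.3% ± 2.57 (SD, n = 3) did not pass (edgeR adjusted p = 0.871). TXNRD1 had shares of 13, 15.9 and 17.4% in DMSO and 40.5, 42.3 and 40.6% with WX-02-23. The rise in log2 odds of 1.95 (SE 0.34) gave an edgeR adjusted p of 0.266 on this scaling. With the T>C reads and the other reads scaled separately it passed, with an edgeR adjusted p of 0.00219. It did not pass with limma (adjusted p = 0.335) or in edgeR on the 6 libraries alone (0.207). HSPA1B went the other way, from 8.1, 8.03 and 8.21% to 5.39, 6.36 and 5.13%, with a log2 odds value of -0.57 that did not pass. GDF15 and PDK4 had shares of 18.8% ± 1.93 and 38.8% ± 5.29 in DMSO and 21.1% ± 0.131 and 35.4% ± 1.21 with WX-02-23 (SD, n = 3). The groups overlapped for PDK4 and lay next to each other for GDF15, and neither gene passed. Of the 22 genes called in both readouts, 9 had an unadjusted share p under 0.05, and 4 of the 70 called in total RNA only did. Over all genes tested for the share, 3.37% had such a p. The calls in T>C reads, which are the numerator of the share, separate these classes, so part of this difference is built in.

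**Figure D4:**
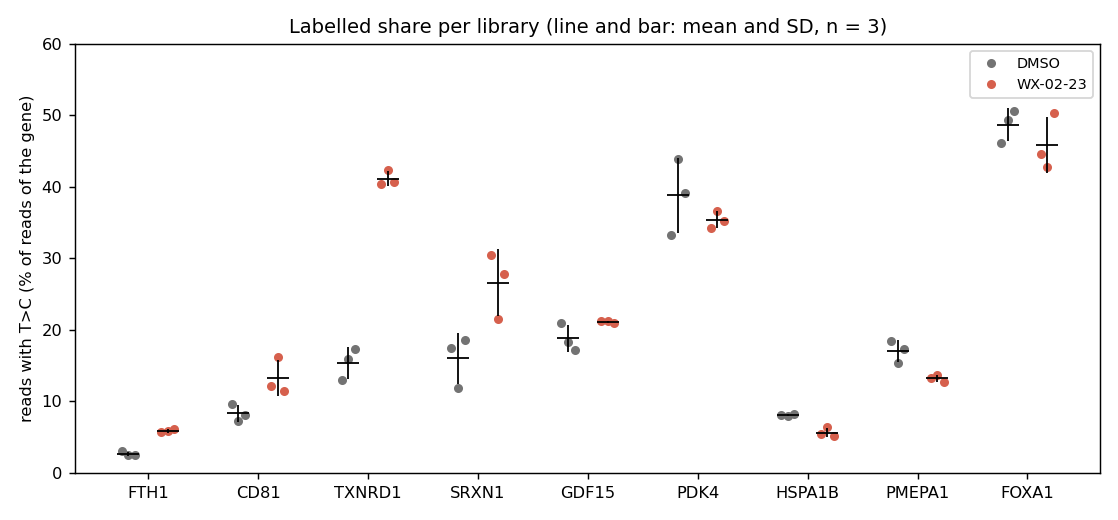
Labelled share, the T>C reads as a percentage of all reads of a gene (y axis), in each DMSO library (grey) and WX-02-23 library (red) for 9 genes, with mean and SD. The shares of FTH1, CD81, TXNRD1 and SRXN1 lie higher with WX-02-23 in every library, those of HSPA1B and PMEPA1 lie lower, and those of FOXA1 overlap.

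A call in total RNA alone did not show that new RNA was unchanged. All 70 genes of that class were tested in new RNA, 66 had the same sign there and 36 had an unadjusted p under 0.05. Of the 10720 genes tested in both readouts, 6962 had the same sign and 485 had such a p in new RNA. T>C reads are part of the total reads that selected the 70 genes, so some of this agreement is built in. The median size of change of the 70 genes was 0.62 in total RNA and 0.56 in new RNA, while the median SE was 0.14 and 0.32. Over all genes tested in both readouts the median size of change was 0.19 in total RNA and 0.49 in new RNA. The median SE of these genes was 0.24 and 1.01. For the genes called in both, the median SE was 0.12 in total RNA and 0.19 in new RNA. The classes also had different labelled shares in DMSO, a property that the calls in T>C reads partly select for. The median labelled share in DMSO was 30.9% for genes called in both, 15.9% for those called in total RNA only and 10.1% for all genes tested in both readouts. The genes called in both had a median of 4.5 exons, those called in total RNA only 5 and all tested genes 9. No test was made of these 3 properties. When all reads were thinned to the depth of the T>C reads, 91 of 10452 genes were called, of which 68 were also called at full depth and 22 in new RNA. The median SE over 9949 genes was 0.265 for thinned reads and 0.929 for T>C reads. Among reads without T>C, 69 genes were called in all. They included 49 of the 70 genes in the same direction, against 15 of the 22 and neither of the 2. Reads without T>C are most of the reads that selected the 70 genes, so this recount is no separate test of them.

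The labelling itself was measured per library. T>C reads made up 9.45% ± 0.431 of coding reads in DMSO and 9.64% ± 0.217 with WX-02-23 (SD, n = 3). The exact two-sided permutation test gave p = 0.7, and with 3 libraries against 3 no p can go below 0.1. The share of covered T positions that were converted was 0.728, 0.680 and 0.711% in DMSO and 0.826, 0.795 and 0.812% with WX-02-23, so that the groups did not overlap (exact permutation p = 0.1, 0.167 after adjustment over 5 library measures). Each T>C read carried 1.79, 1.85 and 1.80 conversions in DMSO and 1.99, 2.00 and 1.98 with WX-02-23, again without overlap (exact permutation p = 0.1, adjusted 0.167). Of 3341 genes with at least 50 T>C reads in each library, 71.3% had more conversions per T>C read with WX-02-23. In 14.4% of them every treated library was above every DMSO library, and in 2.60% every one was below. The part of this difference in the new RNA calls was not tested. Background T>C reads were not subtracted, since unlabelled cells were not analysed here.

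**Figure D5:**
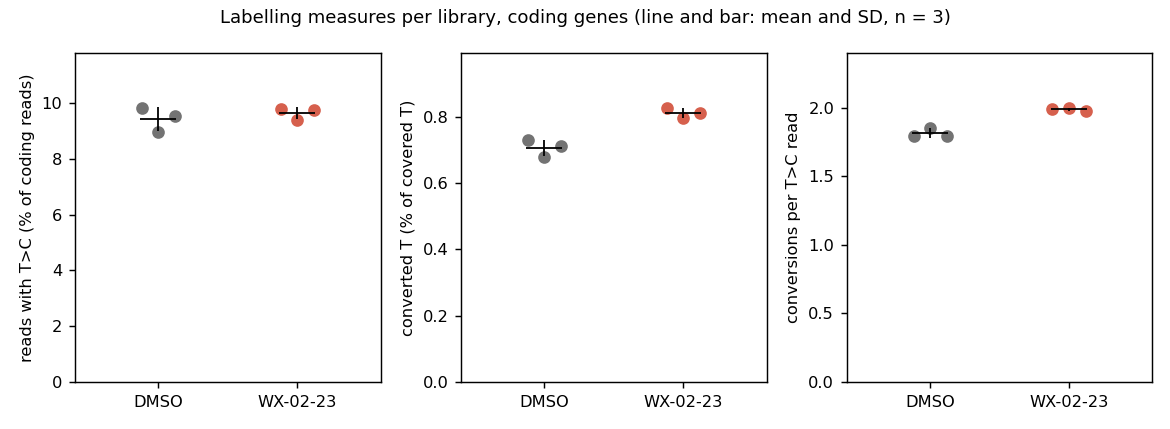
Labelling measures per library (points; y axes from 0) for the 3 DMSO (grey) and 3 WX-02-23 (red) libraries, with mean and SD: the percentage of coding reads with T>C, the percentage of covered T positions converted, and conversions per T>C read. The first measure overlaps between groups at 9.45% and 9.64%, and the other measures lie higher with WX-02-23 in every library.

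WX-02-43, a second stereoprobe, was given at the same 20 µM and 3 h, which allows a direct comparison in the same fit. In new RNA 5 of 10722 genes differed between the compounds (0.0466%), and in total RNA 20 of 13178 (0.152%), with 306 and 726 at an unadjusted p under 0.05. Among the 22 genes called against DMSO in both readouts, 3 differed in new RNA (PDK4, PMEPA1 and TXNRD1) and 9 in total RNA, each in the direction of its change against DMSO. This contrast shares the WX-02-23 libraries with the one that chose the genes. WX-02-43 itself raised total RNA against DMSO for GDF15 (1.03), HSPA1B (1.01), SESN2 (0.93) and HMOX1 (3.15). The edgeR adjusted p of these ran from 3.41e-11 to 0.00244. In new RNA it raised TXNRD1 by 1.45 (edgeR adjusted p = 0.000554), GDF15 by 1.30 (1.71e-07) and SESN2 by 1.35 (0.00195). OSGIN1 also passed in new RNA (edgeR adjusted p = 0.000978), with 39.4, 62.5 and 42.7 CPM against 0 in each DMSO library. The new RNA values of WX-02-43 for HSPA1B (0.84), DDIT4 (1.14) and HMOX1 (2.85) did not pass. Its total RNA values for PDK4 (0.31), DDIT4 (0.75) and IRS1 (0.52) were above 0 but did not pass. Some of the calls against DMSO were thus shared by both compounds. PDK4 had total RNA of 195.5, 195.8 and 168.3 CPM with WX-02-43, near its DMSO level, and was higher with WX-02-23 by 1.48 (SE 0.11, edgeR adjusted p = 3.95e-12). PMEPA1 had new RNA of 1369, 1168 and 1090 CPM with WX-02-43 and was lower with WX-02-23, with a difference of -0.94 (SE 0.16, edgeR adjusted p = 0.0032). TXNRD1 had new RNA of 669.3, 727.5 and 595.8 CPM with WX-02-43, between the levels of DMSO and WX-02-23, and was higher with WX-02-23 by 1.15 (SE 0.23, edgeR adjusted p = 0.0241). GDF15 differed in total RNA by 0.38 (SE 0.09, edgeR adjusted p = 0.0439) but not past the threshold in new RNA, at 0.29 (95% interval 0.01 to 0.57). ZNF503, which fell against DMSO, had a new RNA value of 0.23 (95% interval 0.04 to 0.41) for WX-02-23 minus WX-02-43. That value is opposite in sign to its fall and did not pass the threshold.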

How the data were processed

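SLAM-seq 3′ end libraries of 6 samples were compared, and all 12 libraries of the 4 groups entered each fit so that they shared 1 estimate of the spread. Per the file headers, the authors counted reads with slamdunk over RefSeq 3′ UTR intervals and spike-ins; version 0.4.3 comes from the headers and hg19 from the submitters' processing notes. The deposited columns hold raw counts per interval of all reads, of T>C reads, of multimapping reads and of T positions, with no normalization. The authors' CPM column gave the library totals (24670716 to 42190854 reads), and their deposited conversion rate, a fraction of covered T positions, was not tested.

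Of 29255 intervals, 23086 were coding, 5460 noncoding and 709 spike-ins, and only coding ones were used. Of each gene's overlapping intervals, 2635 were left out, as were 24 intervals of the pseudoautosomal regions on chromosome Y; 44 of 45 gene names turned into dates were restored. Exon numbers come from GENCODE release 29 by gene name.

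T>C reads and all reads were tested with edgeR 4.0.16 (R 4.3.3), a quasi-likelihood fit on all genes with TMM scaling, filterByExpr and Benjamini-Hochberg adjustment, called at adjusted p under 0.05. The standard error of a log2 change is its size over the square root of the F statistic, and intervals are 95%. The labelled share was tested on T>C reads and other reads of each library, with a library term and a label-by-group term. DESeq2 1.42.0 and limma 3.58.1 served as alternatives, with the other settings listed in the closing part. The fits were tested on simulated data with known changes. In new RNA they recovered 3% of the 2-fold and 28% of the 4-fold changes, and in total RNA 54% and 84%. For the labelled share, simulated in genes with many T>C reads, 31% and 78% were recovered. A gene not called in new RNA may therefore still have changed. Same-numbered replicates did not deviate together (correlations from -0.02 to 0.00 in both readouts), so the number was not used as a block. Reads carry no molecular identifiers, so the count floor of 3 covers counting error only; between replicates, gene count variance was a median of 15.6 to 16.3 times the mean.

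The genes named in each class were those called in the full fit and in all 6 fits leaving out 1 DMSO or WX-02-23 library, up to 10 per direction, or every called gene where fewer than 3 passed; for each list, called members and up to 3 with the most DMSO reads; and FOXA1 and SF3B1. Some genes and lists that the rule covers are not reported here. Genes with over 20% multimapping reads are called uncertain. The comparison, lists and rule were chosen with earlier results of these data known.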

Additional observations from a re-analysis of the deposited data

How the results depend on the processing

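No gene called in the report changed direction under any alternative run. DESeq2 called 69 genes in new RNA and 146 in total RNA (35 in both, 34 in new RNA only, 111 in total RNA only). Without the filter on low counts, total RNA had 140 calls, with 4 in new RNA only and 114 in total RNA only. A fit on the 6 libraries alone gave 56 in total RNA, 1 in new RNA only, 38 in total RNA only and 0 for the labelled share. Plain sums of overlapping intervals gave 13 in new RNA, 53 in total RNA, 12 in both, 1 in new RNA only and 41 in total RNA only. For the labelled share, limma called 3 genes, FTH1 not among them, and separate scaling of T>C and other reads 2. Leaving out 1 library gave 12 to 23 calls in new RNA, 41 to 86 in total RNA, 11 to 18 in both, 1 to 5 in new RNA only, 30 to 70 in total RNA only and 0 to 1 for the share; the fewest in new and in total RNA came without WX-02-23 replicate 2. The difference in the labelled share over coding genes was 0.194 percentage points and ran from -0.0394 (without DMSO replicate 2) to 0.385. With the replicate block, new RNA had 25 calls, total RNA 104, both 22, new RNA only 3, total RNA only 82 and the share 1; the numbers do not pair the samples. Of the 24 new RNA calls, 11 held in every fit that left out 1 library, and of the 92 total RNA calls, 27. The causes of these shifts were not tested. Precision is lower for new RNA: the median SE over all genes was 1.01 for T>C reads and 0.281 for all reads. Thinning and conversions per T>C read were added after seeing the data.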
